A study of Mus musculus with 90 samples.

Results

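The cytosolic ribosomal protein genes encode the protein components of both ribosomal subunits. They were chosen by name: protein-coding mouse genes called Rpl or Rps followed by a digit, with Rpsa and Rplp0 to Rplp2, and without the Rps6k kinases and Rps19bp1. The rule took 90 of the 24475 genes in the count tables. Of these, 77 are the canonical genes, 6 were listed as paralogs (Rpl3l, Rpl7l1, Rpl22l1, Rpl36al, Rpl39l and Rps27l) and 7 were classed as retrocopies, copies of a parent mRNA inserted elsewhere in the genome (Rpl10l, Rpl31-ps12, Rpl32l, Rpl34-ps1, Rpl37rt, Rps23rg1 and Rps27rt). Retrocopies were told by symbol, exon number and span, and may also encode a protein of their own. Rpl10l, for example, differs from Rpl10 at 98 of 645 coding bases. The low-count filter kept 86 members in each experiment, and all 77 canonical genes were among them.

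Mature ribosomal protein mRNAs are among the most abundant of any growing or secretory cell, and the liver, which makes most plasma proteins, depends on a large ribosome pool. Many of these mRNAs start with a tract of pyrimidines, the 5′ terminal oligopyrimidine (TOP) motif, through which mTORC1 and the RNA-binding protein Larp1 control their translation. Such control changes how often an mRNA is read, and RNA sequencing does not measure it.

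Poly(A)-selected, strand-specific libraries of mouse liver, 90 in all, were made in 2 experiments, with 10 libraries in each of 9 groups. Glucagon acts on hepatocytes through its receptor Gcgr, the stimulatory G protein encoded by Gnas, and cAMP, which acts through protein kinase A (PKA) and through Epac2 (gene Rapgef4). In experiment 1 an AAV8 vector, which favours the liver, carried short hairpin RNA: the groups were Control, Gcgr KD, Gnas KD, PKA KD and Epac2 KD, where KD stands for knockdown. In experiment 2 the groups were Control AAV + Control mAb, Control AAV + Gcgr mAb, Prkar1a KD + Control mAb and Prkar1a KD + Gcgr mAb, where the Gcgr mAb is an antibody against the glucagon receptor. Prkar1a encodes a regulatory subunit that holds PKA inactive, and its loss activates PKA. The labels used here do not say what the Control group of experiment 1 received, and state no promoter, strain, age, sex or time after injection. Nothing in the labels says that replicates came from separate animals, so p-values measure the spread between libraries.

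Library totals, in units of 1000000 counts, were 20.8 to 33.7 in experiment 1 and 8.87 to 19.5 in experiment 2. The targeted genes were lower in the groups named for them: median Gcgr fell from 172 to 44.9 CPM (counts per 1000000 counts of the scaled library) in Gcgr KD, Gnas from 359 to 44.7 in Gnas KD, Prkaca from 95.7 to 9.44 and Prkacb from 40.4 to 8.94 in PKA KD, Rapgef4 from 89 to 8.83 in Epac2 KD, and Prkar1a from 122 to 32.8 in Prkar1a KD + Control mAb. Gcgr mRNA does not check the Gcgr mAb groups, since an antibody acts on the protein. All 8 hepatocyte markers were found in every group. In experiment 2, 3 libraries (Control AAV + Control mAb replicates 2 and 10, and Control AAV + Gcgr mAb replicate 3) had transcripts over 4 kb (4000 nt) low by more than 0.2 on the log2 scale against each gene's mean over the libraries of the experiment (-0.27, -0.44 and -0.31).

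Promoter windows were matched for 69 members, 57 of them canonical, in RefSeq's table for GRCm38.p6. A pyrimidine tract, here a C within 5 bases of the annotated start followed by at least 4 more pyrimidines, was found in 27 of the 57 (47.4%), and in 21.2% of all 27025 genes with a window. Annotated starts can lie some bases from the main start, so the share is a description of these windows. The following windows cover 35 bases before to 20 bases after an annotated start for 8 members whose levels are described below, with the tract in capitals where there is one. For a gene with more than 1 window, the first with a tract is printed, or the first of all if none has one. Rpl22 and Rps27l have 2 windows each. Their printed windows lie downstream of the gene starts at chr4:152324436 and chr9:66944624.
Rpl13a (chr7:45128726-45128780, minus strand): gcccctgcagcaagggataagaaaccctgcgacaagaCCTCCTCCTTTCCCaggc
Rpl12 (chr2:32961677-32961731, plus strand): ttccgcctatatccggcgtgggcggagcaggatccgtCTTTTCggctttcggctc
Rpl7a (chr2:26910772-26910826, plus strand): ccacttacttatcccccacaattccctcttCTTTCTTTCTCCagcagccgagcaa
Rps3a1 (chr3:86142649-86142703, minus strand): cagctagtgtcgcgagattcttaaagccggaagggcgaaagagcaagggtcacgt
Rpl10 (chrX:74270781-74270835, plus strand): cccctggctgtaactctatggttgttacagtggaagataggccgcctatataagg
Rpl22 (chr4:152325691-152325745, plus strand): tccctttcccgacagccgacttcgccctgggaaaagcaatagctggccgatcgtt
Rpl22l1 (chr3:28805473-28805527, plus strand): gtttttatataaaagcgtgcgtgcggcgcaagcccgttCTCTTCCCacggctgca
Rps27l (chr9:66946051-66946105, plus strand): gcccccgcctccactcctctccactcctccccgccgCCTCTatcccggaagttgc

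The study concerns a cAMP pathway, so the full cAMP response element TGACGTCA, which reads the same on both strands, was searched in windows from 250 bases before to 50 bases after the start. It was found in 5 of 57 canonical genes (8.77%) and in 2.03% of all genes with a window. Its shorter part TGACG, which lies inside the full element, was found on either strand in 29 of the 57 (50.9%) and in 23.0% of all genes, and the ETS-type motif CTTCCGG in 24 (42.1%) and 9.93%. The E-box CACGTG was found in 6 (10.5%) against 8.09%, and TATAAA on either strand in 6 (10.5%) against 15.7%. These 6 searches, the tract included, are all that were made, and a match is a description of the letters in the window. The 5 cAMP response elements, in capitals with 15 bases on each side, lay 24 (Rpl13), 79 (Rpl18), 134 (Rpl26), 97 (Rpl27a) and 57 (Rps9) bases before the annotated start.
Rpl13 (chr8:123102311-123102348): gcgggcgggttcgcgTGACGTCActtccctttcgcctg
Rpl18 (chr7:45717977-45718014): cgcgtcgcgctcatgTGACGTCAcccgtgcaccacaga
Rpl26 (chr11:68901417-68901454): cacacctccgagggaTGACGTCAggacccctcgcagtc
Rpl27a (chr7:109519083-109519120): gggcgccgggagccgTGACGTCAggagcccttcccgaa
Rps9 (chr7:3703969-3704006): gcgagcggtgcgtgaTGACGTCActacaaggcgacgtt

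In control liver the canonical genes were expressed at similar levels per length. Divided by the median length of each gene's annotated coding transcripts, the median level was 190 CPM per kb in the control group of experiment 1, and 63 of 77 genes lay within 2-fold of it. In the control group of experiment 2 the median was 218 CPM per kb and 67 of 77 lay within 2-fold. Large subunit genes had a median of 199.96 CPM per kb and small subunit genes of 172 in experiment 1, and the medians were 221 and 217 in experiment 2. Rpl10, a late-joining protein of the large subunit, was the highest in both control groups, at 489 ± 26.0 and 589.6 ± 69.6 CPM per kb (SD, n = 10). Rps2 and Rpl13a followed near it, at 479 ± 41.6 and 472 ± 50.01 CPM per kb in experiment 1 (SD, n = 10), so these neighbours did not differ beyond their spread. Rps20 was near the bottom, at 12.2 ± 1.28 CPM per kb (SD, n = 10), but its only annotated coding transcript is 3706 nt long, and a shorter transcript in liver would raise that value. Rps27 was the lowest in both, at 12.03 ± 1.56 and 18.1 ± 3.02 CPM per kb (SD, n = 10).

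The coding sequence of Rps27 has an exact copy elsewhere. Rps27 lies on chromosome 3 and its retrocopy Rps27rt on chromosome 9, and their 255-base coding sequences have 0 differing bases. The paralog Rps27l, which encodes a protein of its own, differs from Rps27 at 61 of 255 bases. The first 90 bases are shown, with the bases of Rps27l that differ in capitals.
Rps27: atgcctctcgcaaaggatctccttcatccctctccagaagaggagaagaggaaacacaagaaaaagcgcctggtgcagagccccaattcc
Rps27rt: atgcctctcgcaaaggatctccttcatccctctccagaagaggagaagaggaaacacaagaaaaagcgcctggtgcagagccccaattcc
Rps27l: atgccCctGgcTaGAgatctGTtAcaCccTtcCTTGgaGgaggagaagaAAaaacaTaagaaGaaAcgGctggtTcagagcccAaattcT
Rps27 had a median of 4.81 CPM in the control group of experiment 1 and Rps27rt had 66.8. All values of both genes were fractional, which is how estimated counts treat reads shared between genes. The level of either gene alone is therefore uncertain, and their sum, with a median of 71.3 CPM in that group, does not depend on how shared reads were split between them. Of the 77 canonical genes, 17 had fractional values in over 10% of the libraries, among them Rpl7a, Rplp2, Rps2 and Rps19. Values were fractional in 100% of libraries for the paralog Rpl7l1 and in 56 and 62.5% for Rpl22l1, and results for these genes carry the same uncertainty.

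Rpl37 and its retrocopy Rpl37rt showed the same sharing within an experiment. In 47 of 50 libraries of experiment 1, Rpl37 was at 66.8 CPM or above and Rpl37rt at 3.31 or below. In the other 3 libraries more counts were given to the retrocopy: 35.2 and 53.6 CPM in Gnas KD replicate 3, 35.4 and 47.2 in Gnas KD replicate 9, and 41.2 and 53.2 in Epac2 KD replicate 6 (Rpl37 first). Their sums, 88.9, 82.6 and 94.4 CPM, lay near the median sum of 88.9 over all 50 libraries. Rpl37rt passed the test in Gnas KD (log2 fold change 4.57 ± 1.08, SE, adjusted p = 0.00263) and in Epac2 KD (3.79 ± 1.08, adjusted p = 0.0282). No Gnas KD or Epac2 KD library beside these 3 had Rpl37rt above 3.31 CPM. Rpl31-ps12 differed between the experiments, with a median of 36.4 CPM in experiment 1 and 0.221 in experiment 2, where Rpl31 itself was higher (75.4 and 159 CPM). In Control AAV livers Rpl31-ps12 passed the test for the Gcgr mAb (3.65 ± 1.05, SE, adjusted p = 0.0233) on values of 0 to 13.8 CPM in the antibody group against 0 to 0.29 in the control. Calls for these retrocopies are not counted below.

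**Figure D1:**
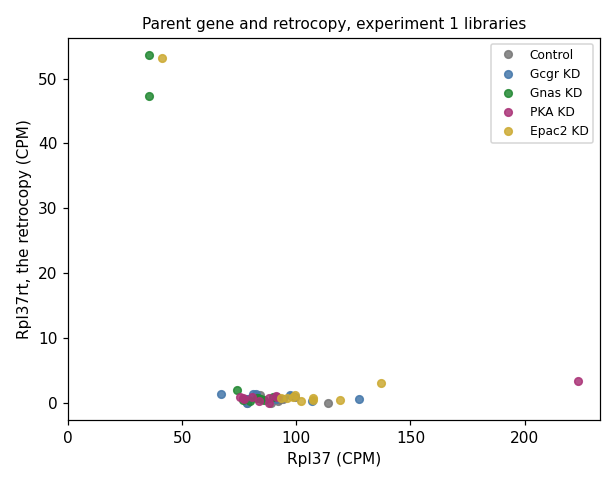
Level of Rpl37 (horizontal axis, CPM) against its retrocopy Rpl37rt (vertical axis, CPM) in the 50 libraries of experiment 1, 1 point per library, coloured by group. The 2 Gnas KD libraries and 1 Epac2 KD library lie apart, with Rpl37 at 35.2 to 41.2 CPM and Rpl37rt at 47.2 to 53.6 CPM, and PKA KD replicate 3 lies at the right with Rpl37 at 223 CPM.

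The canonical genes together took 1.14% of all counts in the median control liver of experiment 1 (range 1.09 to 1.25%). The medians were 1.10% in Gcgr KD (range 0.99985 to 1.47%), 1.11% in Gnas KD (1.04 to 1.22%), 1.10% in PKA KD (1.03 to 1.55%) and 1.27% in Epac2 KD (1.13 to 1.36%). All 4 knockdown groups overlapped the control. In experiment 2 the median was 1.18% in Control AAV + Control mAb (range 1.08 to 1.79%) and 1.19% in Control AAV + Gcgr mAb (1.07 to 1.81%). It was 1.68% in Prkar1a KD + Control mAb (1.39 to 1.77%) and 1.51% in Prkar1a KD + Gcgr mAb (1.43 to 2.22%). The Prkar1a KD groups stood above most control libraries, and a few control libraries reached into their range. In 3 groups 1 library stood apart: PKA KD replicate 3 (1.55%), Control AAV + Control mAb replicate 10 (1.79%) and Prkar1a KD + Gcgr mAb replicate 7 (2.22%). No test was made on this share.

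**Figure D2:**
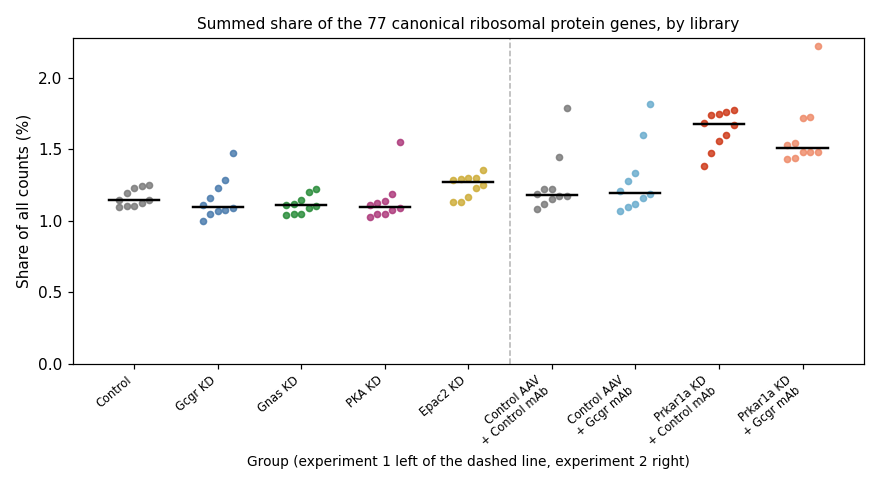
Share of all counts taken by the 77 canonical ribosomal protein genes (vertical axis, %, from 0) in each library, by group; black lines are group medians, experiment 1 left of the dashed line and experiment 2 right. In experiment 2 the medians are 1.18 and 1.19% in the Control AAV groups and 1.68 and 1.51% in the Prkar1a KD groups, and the 5 medians of experiment 1 lie between 1.10 and 1.27%.

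A subset of the ribosomal protein genes fell in PKA KD livers. There 20 of 77 canonical genes fell and 0 rose, while 14.8% of all tested genes fell and 17.7% rose (edgeR, adjusted p under 0.05). At an unadjusted p under 0.05 there were 29 canonical genes, and DESeq2 and limma-voom also called 0 rises. The median log2 fold change was -0.09 over the canonical genes and 0.01 over all 13574 genes tested. The falls comprised 15 of 46 large subunit genes and 5 of 31 small subunit genes. The mitochondrial ribosomal protein genes fell in a like share, 28.2% of 78 genes (median -0.06, 5.13% rose), against 26.0% of the canonical genes. Hepatocyte markers summed to a median of 91749 CPM in the control group and 81681 in PKA KD, with 1 of 8 lower, and cholangiocyte markers to 37.1 and 71.1 CPM, with 2 of 5 tested higher; their part in the result was not tested. In whole liver, fewer cells of a type and less RNA per cell cannot be told apart.

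Rpl10 fell the most. It was at 328, 358 and 379 CPM in the control group (lowest, median and highest) and at 222, 250 and 259 in PKA KD, so the groups did not overlap, and the log2 fold change was -0.52 ± 0.05 (SE, adjusted p = 3.65e-11). Rpl12, of the stalk base where elongation factors dock, was at 126, 144 and 158 CPM in the control group and at 86.3, 96 and 160 in PKA KD, a log2 fold change of -0.45 ± 0.09 (adjusted p = 7.61e-05). PKA KD replicates 3 and 5 overlapped the control range, and the other 8 lay below it. Rpl15 and Rps7 were also lower in every PKA KD library than in any control library (log2 fold changes -0.32 ± 0.05 and -0.26 ± 0.05). Such separation below the control was seen for 3 canonical genes, and for 3% of all genes tested. Rpl13a, whose protein also takes part in silencing inflammatory mRNAs, had a log2 fold change of -0.25 ± 0.10 (adjusted p = 0.0404). Rpl5, which with Rpl11 and 5S rRNA can bind Mdm2, fell by 0.25 ± 0.09 on the log2 scale (adjusted p = 0.0246), while Rpl11 was at 0.02 ± 0.07 (adjusted p = 0.878).

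Rpl22 and its paralog Rpl22l1 moved in opposite directions in PKA KD livers. The Rpl22 protein is known to repress Rpl22l1 in the mouse. Rpl22 was at 63.5, 72.1 and 86.7 CPM in the control group and at 45.9, 48.8 and 103 in PKA KD (log2 fold change -0.42 ± 0.09, adjusted p = 0.000355). Of the 10 PKA KD libraries 9 lay below the control range, and replicate 3 was above it at 102.7 CPM. Rpl22l1 was at 1.48, 2.11 and 3.31 CPM in the control group and at 2.35, 3.51 and 14 in PKA KD (1.07 ± 0.23, adjusted p = 0.000148). Replicate 3 was also the library at 14 CPM, and without it the changes were -0.57 for Rpl22 and 0.70 for Rpl22l1. A second paralog, Rpl7l1, an Rpl7-related factor of large subunit assembly, rose from a median of 52 to 61.5 CPM (0.25 ± 0.05, adjusted p = 0.000303). Rps27l, Rpl36al and the canonical partners of both did not pass the test in PKA KD.

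PKA KD replicate 3 was left out to see its weight, and no other library of experiment 1 was. Without it 36 of 77 canonical genes fell and 0 rose, and the median log2 fold change was -0.18. That library was picked because its summed share of these same genes stood apart, so this is a description of its weight and not a preferred estimate. In the fit without it, the median over all genes was 0.003 and rises made up 53.5% of the calls over all genes. The share of all genes called in that fit is not given here.

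Gcgr KD and Gnas KD were compared with the same control. With Gcgr KD 3 of 77 canonical genes fell and 0 rose (13 at an unadjusted p under 0.05), against 4.33% of all genes that fell and 2.9% that rose, so the 3.9% of canonical genes that fell lay near the share of all genes. DESeq2 called 6 falls there and limma-voom 3. Rplp0, a stalk protein often used as a reference gene, was at 259, 286 and 340 CPM in the control group and at 204, 232 and 279 in Gcgr KD (-0.29 ± 0.08, adjusted p = 0.0216). The groups overlapped, and all 10 Gcgr KD libraries were below the control median. The others were Rpl7a (-0.23 ± 0.06) and Rps7 (-0.15 ± 0.05). With Gnas KD 7 canonical genes fell and 0 rose (20 at an unadjusted p under 0.05), against 8.32% of all genes that fell and 6.83% that rose, and the 9.09% of canonical genes that fell again lay near that share. The count of falls was 15 when only these 2 groups were fitted (18 in PKA KD), 12 without PKA KD replicate 3 and 3 without the filter on low counts, and DESeq2 and limma-voom called 9 and 8. Among them were Rpl7 (-0.24 ± 0.08, adjusted p = 0.0455) and Rps7 (-0.20 ± 0.05, adjusted p = 0.00127). Neither tool called a rise in Gcgr KD or Gnas KD. The medians over the canonical genes were -0.10 and -0.14, with 74 and 76 of 77 estimates below 0, against 6353 and 6378 of all 13574 genes. The mitochondrial ribosomal protein genes had medians of -0.09 in both, with 66 and 67 of 78 below 0. Other genes with transcripts up to 1 kb had medians of -0.02 in both, and those over 4 kb of 0.04 in both. The part of transcript length in the result was not tested. Hepatocyte marker sums had medians of 74772 CPM in Gcgr KD and 88270 in Gnas KD, with 1 and 2 of 8 lower, and cholangiocyte marker sums of 79.5 and 86.2 CPM, with 0 and 2 of 5 tested higher. In Gnas KD 4 of 10 stellate cell markers rose. The part of these markers in the result was not tested. These groups share the control libraries with PKA KD, so the like direction is not independent.

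Epac2 KD went the other way. With Epac2 KD 7 canonical genes rose and 0 fell (30 at an unadjusted p under 0.05), against 1.82% of all genes that rose and 2.74% that fell. DESeq2 and limma-voom called 7 rises and 0 falls. Rpl3, which lies at the peptidyl transferase centre, was at 190, 206 and 227 CPM in the control group and at 223, 252 and 278 in Epac2 KD (0.26 ± 0.06, adjusted p = 0.00122). Those groups overlapped in a narrow band. Rpsa, also known as the laminin receptor precursor, was at 318, 362 and 431 CPM and at 363, 437 and 546 (0.24 ± 0.07, adjusted p = 0.0306). All 10 Epac2 KD libraries were above the control median for Rpl3 and Rpsa. The median over canonical genes was 0.15, with 75 of 77 estimates above 0, against 7341 of all 13574 genes, and over the mitochondrial ribosomal protein genes it was 0.09, with 69 of 78 above 0. The hepatocyte marker sum had a median of 75369 CPM (57083 to 112242) in Epac2 KD, with 1 of 8 markers lower, and its part in the result was not tested. When only these 2 groups were fitted, 1 gene rose. In Epac2 KD other genes with transcripts up to 1 kb had a median of 0.03 and those over 4 kb of 0.01. Epac2 KD replicate 5 was the library of experiment 1 lowest in transcripts over 4 kb (-0.18 on the log2 scale). The part of transcript length was not tested here either.

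The medians of experiment 1 moved with the scaling of libraries. With library totals in place of TMM, the median of all genes moved from 0.01 to 0.11 in Gcgr KD and PKA KD, and from 0.01 to 0.08 in Gnas KD. The canonical median was then 0.00, 0.01 and -0.07, and relative to all genes it stayed at -0.11 in Gcgr KD, -0.10 in PKA KD and -0.15 in Gnas KD. In Epac2 KD the canonical median was 0.09 with library totals, and 0.13 relative to all genes. With that scaling 3 canonical genes rose and 12 fell in PKA KD, 0 passed in Gcgr KD, 1 fell in Gnas KD and 2 rose in Epac2 KD. Among the calls it took away in PKA KD was Rpl13a (-0.16, adjusted p = 0.126).

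PKA KD was also compared directly with the knockdowns upstream of it. Against Gnas KD 4 canonical genes were higher and 6 lower, with 18.4% of all genes higher and 15.6% lower. Rpl12 (-0.37 ± 0.09), Rpl10 (-0.37 ± 0.05) and Rpl22 (-0.25 ± 0.09) were lower in PKA KD, and Rpl27 (0.30 ± 0.10) and the paralogs Rpl22l1 (0.9999 ± 0.22) and Rpl7l1 (0.31 ± 0.05) were higher. Against Gcgr KD 3 were higher and 5 lower, with 17.3% of all genes higher and 14.4% lower. Without PKA KD replicate 3 the lower counts were 14 and 21 and the higher counts 1 and 1, against Gnas KD and Gcgr KD. In that fit 52.3 and 53.4% of the calls over all genes were higher in PKA KD. Between Gnas KD and Gcgr KD 1 canonical gene passed, Rplp0, which was higher in Gnas KD (0.32 ± 0.08, adjusted p = 0.0102, with 2.37% of all genes higher and 3.47% lower).

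Prkar1a KD was compared with Control AAV to ask what active PKA changes. Under the control antibody 48 of 77 canonical genes rose and 2 fell, while 29.3% of all 12847 tested genes rose and 26.9% fell. The median log2 fold change was 0.24 over the canonical genes and 0.02 over all genes. Rises comprised 23 of 31 small subunit genes and 25 of 46 large subunit genes. No canonical gene was separated between the groups, while 7.8% of all genes were higher and 7.27% lower in every Prkar1a KD library. The mitochondrial ribosomal protein genes, whose products translate the mitochondrial genome, had 6 rises and 24 falls among 78 genes (median -0.07), and 19 and 13 under the Gcgr mAb; in PKA KD they had 4 rises and 22 falls.

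**Figure D3:**
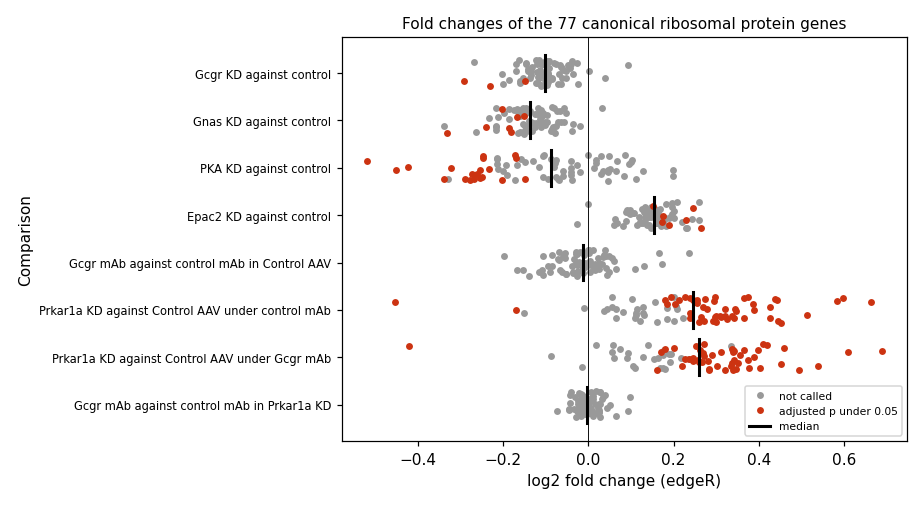
log2 fold changes (horizontal axis) of the 77 canonical genes in 8 comparisons (rows); red points passed an adjusted p of 0.05 in edgeR, grey points did not, and black bars are medians. The medians lie at 0.24 and 0.26 in both Prkar1a KD rows, and between -0.14 and 0.15 in the others.

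Rpl13a rose the most, from 199, 231 and 371 CPM in Control AAV + Control mAb to 342, 379 and 439 in Prkar1a KD + Control mAb (0.66 ± 0.11, adjusted p = 1.76e-06). Rpl12 was at 92.8, 115 and 157 CPM and at 144, 186 and 213 (0.60 ± 0.11, adjusted p = 1.23e-05). Rps3a1, of the small subunit, was at 226, 252 and 327 CPM and at 314, 366 and 419 (0.51 ± 0.07, adjusted p = 3.53e-08). In each case all 10 Prkar1a KD libraries lay above the control median, and the overlap came from the highest control libraries. Rps27 had 0.58 ± 0.22 (adjusted p = 0.0208), which is uncertain for the sharing given above. Its sum with Rps27rt was at 111, 120 and 188 CPM in the control group and at 147, 170 and 193 in Prkar1a KD. The stalk proteins Rplp0 (0.43 ± 0.07) and Rplp1 (0.31 ± 0.09) rose, and Rplp2 was at 0.21 ± 0.11 (adjusted p = 0.0971). Rpl5 rose by 0.38 ± 0.07, Rpl3 by 0.39 ± 0.07, Rpsa by 0.34 ± 0.08 and Rps6, the target of the S6 kinases, by 0.27 ± 0.08. Rpl11 (0.04 ± 0.08) and Rps19 (0.06 ± 0.11), a gene mutated in Diamond-Blackfan anaemia, did not pass, with adjusted p of 0.674 and 0.677.

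Rps27a went against the rest. It encodes ubiquitin fused to a small subunit protein and lies on chromosome 11 (29545842 to 29548040 in GRCm38). It was at 162, 172 and 260 CPM in Control AAV + Control mAb and at 113, 134 and 167 in Prkar1a KD + Control mAb (-0.45 ± 0.09, adjusted p = 2.97e-05), with all 10 libraries below the control median. The other canonical gene that fell was Rpl22, from 92.6, 100.03 and 134 CPM to 86.5, 92.5 and 104 (-0.17 ± 0.06, adjusted p = 0.023), and this call was lost when Control AAV + Control mAb replicate 10 was left out (-0.13, adjusted p = 0.0731). The paralogs did not move together. Rpl22l1 rose from 17.2, 19.1 and 24.3 to 20.1, 29.9 and 38.8 CPM (0.67 ± 0.12, adjusted p = 1.18e-05). Rpl7l1 rose from 33, 46.3 and 55.9 to 57.1, 61.4 and 72.2 CPM with no overlap (0.42 ± 0.06, adjusted p = 4.02e-07). Rps27l, a p53 target gene, fell from 89.4, 128 and 165 to 87, 97.8 and 133 CPM (-0.37 ± 0.09, adjusted p = 0.00031). Rpl36al was at -0.20 ± 0.09 (adjusted p = 0.0567) and its canonical partner Rpl36a at 0.20 ± 0.10 (adjusted p = 0.0769). The retrocopy Rps23rg1 was at 1.9, 2.65 and 3.33 CPM in the control group and at 0.212, 0.285 and 0.685 in Prkar1a KD (-2.78 ± 0.23, adjusted p = 3.63e-13), without overlap, on median estimated counts of 37.4 and 5.28. Its values were fractional in 100% of libraries, so its level is uncertain for the sharing of reads given above.

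**Figure D4:**
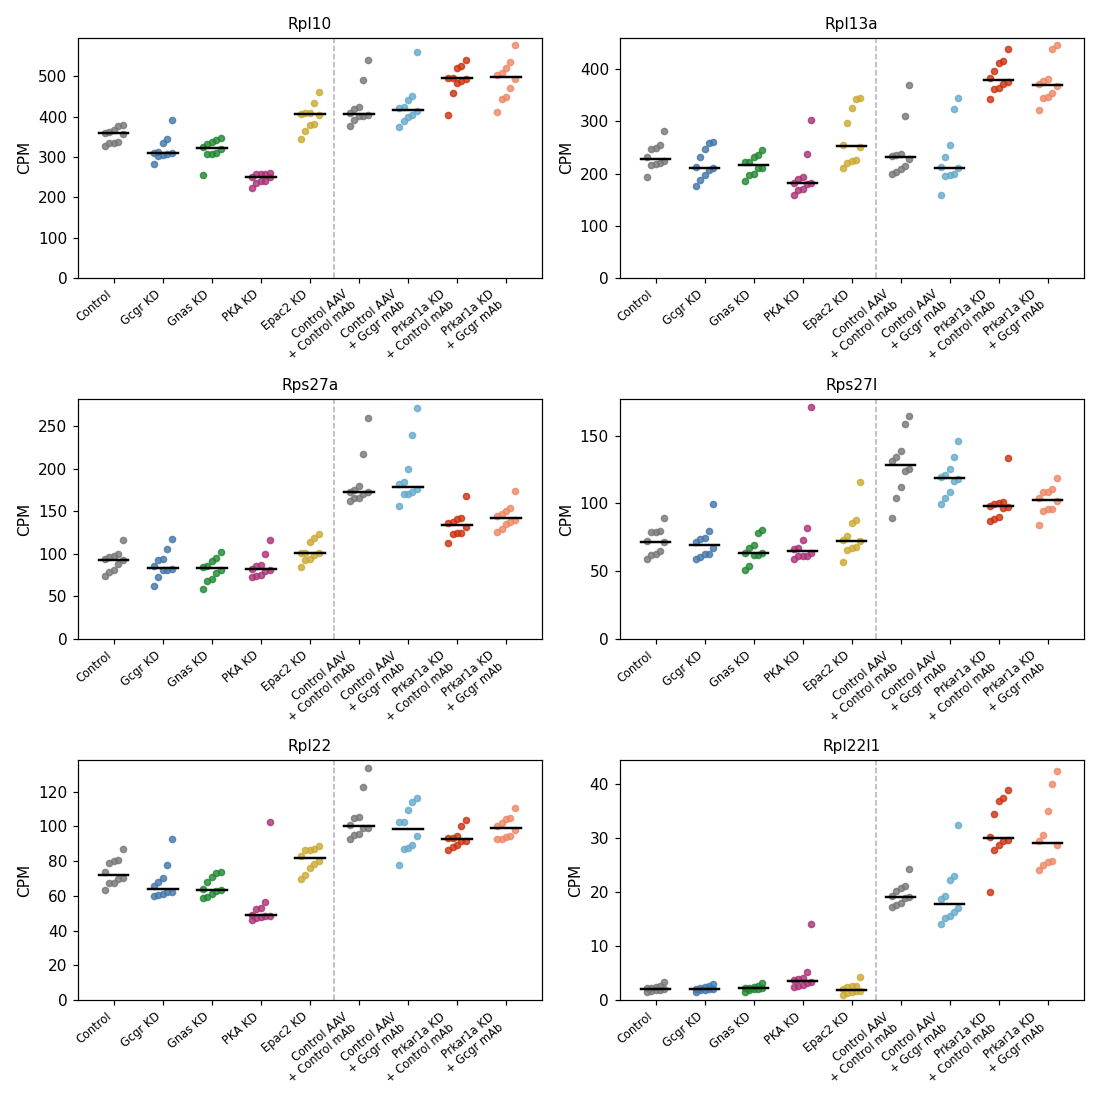
Levels (vertical axis, CPM, from 0) of Rpl10, Rpl13a, Rps27a, Rps27l, Rpl22 and Rpl22l1 in each of 90 libraries, by group, with black lines at group medians. Rpl10 is lowest in PKA KD (median 250 CPM), Rpl13a is highest in the Prkar1a KD groups (379 and 370 CPM), Rps27a and Rps27l are lower there than in the Control AAV groups, and Rpl22l1 differs between the experiments.

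The same comparison was made with the receptor blocked. In livers that all received the Gcgr mAb, Prkar1a KD gave 49 rises and 1 fall among the canonical genes, against 26.5 and 26.6% of all genes. Rpl13a was at 159, 212 and 344 CPM in Control AAV + Gcgr mAb and at 323, 370 and 446 in Prkar1a KD + Gcgr mAb (0.69 ± 0.11, adjusted p = 1.1e-06). Rpl12 (0.61 ± 0.11), Rplp1 (0.54 ± 0.09) and Rpl22l1 (0.66 ± 0.12) rose, and Rps27a was the canonical gene that fell (-0.42 ± 0.09, adjusted p = 0.000102). Rps27l fell as well (-0.22 ± 0.09, adjusted p = 0.0255). Of the 48 genes that rose under the control antibody, 44 also rose under the Gcgr mAb. These 2 comparisons share no library, but they come from 1 fit, and the like overlap over all genes is not given here. Prkar1a KD + Gcgr mAb against Control AAV + Control mAb gave 47 rises and 1 fall (26% and 24.2% of all genes).

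For the Gcgr mAb itself no canonical gene passed. In Control AAV livers 0 of 77 passed in edgeR, DESeq2 and limma-voom, with 2 at an unadjusted p under 0.05, while 8.19% of all genes passed (2.92% rose and 5.27% fell). The estimates ran from -0.20 to 0.24 with a median SE of 0.09. In Prkar1a KD livers 0 canonical genes and 0% of all genes passed, with 0 canonical genes at an unadjusted p under 0.05 and 0 in DESeq2 and limma-voom. For the interaction of Prkar1a KD and Gcgr mAb 0 canonical genes passed in the same 3 tools, with 1 at an unadjusted p under 0.05, against 4.08% of all genes (2.74% above 0 and 1.34% below). The interaction estimates ran from -0.25 to 0.23 with a median SE of 0.12.

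Single libraries, scaling and cell markers moved with the result. Leaving out the 3 libraries low in long transcripts gave 71 rises and 1 fall under the control antibody and 69 and 1 under the Gcgr mAb. Leaving out Control AAV + Control mAb replicate 10 gave 63 rises and 1 fall under the control antibody. Leaving out Prkar1a KD + Gcgr mAb replicate 7 gave 39 rises and 1 fall under the Gcgr mAb. Both libraries stood apart by a high summed share of these same genes. The 3 libraries low in long transcripts, all Control AAV, also had shares above their group medians. Without high control libraries the estimates move towards rises, and without a high Prkar1a KD library away from them. These counts describe the weight of those libraries and are not preferred estimates. In those comparisons rises made up 48.4 to 52.7% of the calls over all genes, and the shares of all genes called are not given here. Other genes with transcripts up to 1 kb had a median of -0.06 in Prkar1a KD under the control antibody and those over 4 kb of 0.14. With library totals the median of all genes moved from 0.02 to 0.16, and 66 canonical genes rose and 1 fell. Relative to all genes the canonical median was 0.22 with either scaling. The summed level of the 8 hepatocyte markers had a median of 76602 CPM (70813 to 81294) in Control AAV + Control mAb and of 35884 (31650 to 44334) in Prkar1a KD + Control mAb, where 4 of the 8 rose and 3 fell. The 6 erythroid markers had 814 (414 to 1152) and 160.4 (49.6 to 458) CPM, with 4 of 4 tested markers lower. Of Kupffer cell markers 2 of 12 rose, of stellate cell markers 1 rose and 3 of 10 fell, and 2 of 10 endothelial markers fell. Cholangiocyte markers had 44.3 (30.9 to 59.0) and 26.7 (18.6 to 32.4) CPM, with 1 of 5 tested lower. Endothelial markers had 163 (100.1 to 227) and 146 (77.9 to 197) CPM, and neutrophil markers 1.3 (0.647 to 5.11) and 3.34 (1.25 to 6.68), with 3 of 6 neutrophil markers at a median of 0 in both groups. Under the Gcgr mAb the hepatocyte sum was 66395 CPM in Control AAV and 40869 in Prkar1a KD, and 8 of 12 Kupffer cell, 6 of 10 stellate cell and 8 of 10 endothelial markers fell. The part of these shifts in the result was not tested. For the marker counts, the shares over all genes were 29.3% risen and 26.9% fallen under the control antibody. Under the Gcgr mAb they were 26.5 and 26.6%.

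The PKA KD and Prkar1a KD comparisons come from different experiments and share no libraries. Of the 20 canonical genes that fell with PKA KD, 17 (85%) rose with Prkar1a KD under the control antibody, and those 17 are 35.4% of its 48 rises. Rises made up 62.3% of all 77 canonical genes and 29.3% of all tested genes. How many of all genes that fell with PKA KD also rose with Prkar1a KD is not given here. The 3 others were Rpl22, Rpl23a and Rps2. In all, 51 of 77 were lower in PKA KD and higher in Prkar1a KD at any size. Taken singly, 55 were below 0 in PKA KD and 73 above 0 in Prkar1a KD. The 51 is the smallest overlap that these counts allow, so it does not show opposite movement gene by gene. Across the 77 genes Spearman's rho between both sets of fold changes was -0.05, a description over genes, which are not independent. Rpl10, with the largest fall in PKA KD, rose by 0.20 ± 0.07 with Prkar1a KD, while Rpl12 was among the 3 largest in both. The paralogs Rpl22l1 and Rpl7l1 rose in both. Of the 5 genes with a full cAMP response element, Rpl13 and Rps9 passed in both, lower with PKA KD (-0.20 ± 0.08 and -0.15 ± 0.06) and higher with Prkar1a KD (0.39 ± 0.09 and 0.18 ± 0.08), and Rpl18, Rpl26 and Rpl27a passed in neither. Under the Gcgr mAb Rps9 did not pass (0.13 ± 0.08, adjusted p = 0.172). Of all 77 canonical genes, 17 passed in both in these directions, and the part of the element was not tested. With Prkar1a KD 16 of 27 genes with a pyrimidine tract and 17 of 30 without one rose, and with PKA KD 8 of 27 and 10 of 30 fell.

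**Figure D5:**
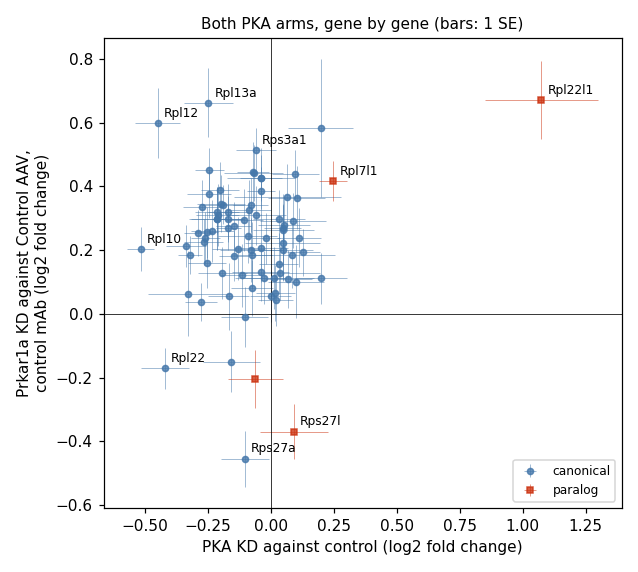
log2 fold change with PKA KD (horizontal axis) against that with Prkar1a KD under the control antibody (vertical axis) for the canonical genes (circles) and paralogs (squares) tested in both experiments, bars 1 SE. Spearman's rho over the 77 canonical genes is -0.05, and Rpl22l1, at 1.07 and 0.67, lies apart at the upper right.

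The canonical genes varied together between libraries of 1 group. After group means were subtracted, the mean correlation between pairs of canonical genes was 0.51 over 50 libraries of experiment 1 and 0.82 over 40 of experiment 2, where other genes with transcripts up to 1 kb had 0.025 and 0.051. Without PKA KD replicate 3 the first was 0.46, and without the libraries low in long transcripts the second was 0.73. These values describe genes that share libraries and depth. Rps27a and Rpl22, which fell with Prkar1a KD, followed the other canonical genes within groups of experiment 2, with correlations of 0.82 and 0.80 to their mean, and Rps27l followed at 0.56.

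Genes that build or serve ribosomes were read from lists. The 40 genes of ribosome biogenesis and RNA polymerase I had 31 rises and 4 falls with Prkar1a KD under the control antibody (median 0.38), and 26 and 2 under the Gcgr mAb (median 0.28). Over all genes, 29.3% rose and 26.9% fell under the control antibody, and 26.5 and 26.6% under the Gcgr mAb. Nop58, a core protein of box C/D particles, rose by 0.99 ± 0.12, Tsr1, a small subunit assembly factor, by 0.89 ± 0.09, while Sbds, which releases Eif6 from the large subunit, fell by 0.35 ± 0.05 on the log2 scale. In PKA KD 5 of the 40 rose and 2 fell (median 0.04), smaller shares than the 17.7 and 14.8% of all genes, among them Polr1a, the largest subunit of RNA polymerase I (0.68 ± 0.07), and Ubtf, its promoter factor (-0.32 ± 0.05). Polr1a also rose with Prkar1a KD (0.78 ± 0.09).

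Of the 6 elongation factor genes, 5 fell and 0 rose in PKA KD (median -0.27), led by Eef1b2 (-0.36 ± 0.06) and Eef1d (-0.29 ± 0.06), and 3 rose and 0 fell with Prkar1a KD (median 0.13), led by Eef2 (0.28 ± 0.08). Of 11 other TOP and ribosome-associated genes, 3 fell in PKA KD, the host RNA Snhg8 (-0.71 ± 0.12), Tpt1 (-0.28 ± 0.06) and the ribosome-bound scaffold Rack1 (-0.28 ± 0.06), and 5 rose with Prkar1a KD, including Rack1 (0.47 ± 0.07) and the host RNA Gas5 (0.45 ± 0.10). Of 27 initiation factor genes 1 rose (Eif5b, 0.29 ± 0.11) and 9 fell in PKA KD (median -0.06), led by Eif1ax (-0.42 ± 0.08) and Eif4b (-0.40 ± 0.07). With Prkar1a KD 11 of the 27 rose and 5 fell (median 0.09): Eif4b rose by 0.36 ± 0.07 and Eif3k fell by 0.76 ± 0.09 on the log2 scale. For these 3 lists, the shares over all genes were 17.7% risen and 14.8% fallen in PKA KD. With Prkar1a KD under the control antibody they were 29.3 and 26.9%, so the 5 initiation factor falls were a smaller share.

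Among 20 genes of mTORC1 and regulators of ribosomal proteins, 8 rose and 7 fell with Prkar1a KD (median 0.01), where 29.3% of all genes rose and 26.9% fell. Myc, which drives ribosome synthesis, rose (2.59 ± 0.50, adjusted p = 3.84e-05) and Mycn fell (-3.54 ± 0.39). Larp1 rose (0.46 ± 0.06) and Rps6ka1 fell (-1.13 ± 0.12). In PKA KD Mycn fell as well (-1.79 ± 0.27), and 3 of the 20 rose and 7 fell. Of 15 genes of the link from ribosomal proteins to Mdm2 and p53, 6 rose and 0 fell in PKA KD, among them Phlda3 (1.27 ± 0.30) and Cdkn1a (1.06 ± 0.31). Over all genes, 17.7% rose and 14.8% fell in PKA KD. With Prkar1a KD 4 of 14 rose and 2 fell, both smaller shares than the 29.3 and 26.9% of all genes. Among them were Gtse1 (0.73 ± 0.27), Mdm4 (0.57 ± 0.10), Sesn1 (-1.27 ± 0.11) and Ccng1 (-0.32 ± 0.09).

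The paralogs with tissue-restricted roles were near the limit of detection. Rpl3l, known from skeletal and heart muscle, had at most 5 counts in every library except Prkar1a KD + Gcgr mAb replicate 2, which had 42. Rpl39l, known from the testis, had 0 to 7 counts, and the retrocopy Rpl10l, which acts in male meiosis, had 0 counts in all 90 libraries.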

How the data were processed

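Expected counts per gene, as the authors deposited them, came from 2 tables of 24475 genes, one per experiment. The aligner and counter are not named here; bcl2fastq 2.17, FastQC and the build GRCm38 (mm10) are named in the submitters' processing notes. Library preparation was strand-specific, per the labels' protocols. Here the values were rounded to whole counts and tested with edgeR 4.0.16 in R 4.3.3 (filterByExpr, TMM scaling, robust quasi-likelihood F test, all groups of an experiment in 1 fit, Benjamini-Hochberg adjustment over all tested genes, called at adjusted p under 0.05). CPM are per 1000000 counts of the TMM-scaled library. The SE is the size of the log2 fold change divided by the square root of F. DESeq2 1.42.0, limma-voom (limma 3.58.1), RLE and library-total scaling, no filter, a replicate block and fits of only the compared groups were alternatives. The fitting code was tested on simulated data. Symbols, starts and promoters came from RefSeq (GRCm38.p6), transcripts from GENCODE M21, of which each gene's median coding transcript length was used.

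The members and the gene lists were chosen with earlier results of these data known. The text names a fixed set of 22 members, the 3 largest called rises and falls of a comparison, the 3 highest and lowest members by level, and up to 2 called genes per direction of a list. Named outside that rule, after their values were seen, were Rps3a1, Rpl15, the genes with a cAMP response element, Rpl37 and Rpl31 and their retrocopies, Rps23rg1, Larp1, and Rack1 and Polr1a in 1 arm each. Some genes that the rule names are not reported here. The motifs and the printed windows were also picked with results known; 6 searches were made, with 1 definition of the tract. The split into canonical genes, paralogs and retrocopies, the length classes and the left-out libraries were also set after values were seen. The 10 members checked for libraries standing apart were also picked then.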

Additional observations from a re-analysis of the deposited data

Results flagged for a closer look

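The summed share and 10 members were checked for a library far from the others of its group, in 99 groups of 10 values, and 17 met the threshold, where chance flags about 1 in 20. The 10 members were picked after values were seen. PKA KD replicate 3 stood apart in 5 measures: the summed share (1.554% of counts, group median 1.099%), Rps3a1 (296.4 CPM, median 199.6), Rpl22 (102.7, median 48.79), Rpl22l1 (14.01, median 3.514) and Rps27l (171 CPM, median 65). Control AAV + Control mAb replicate 10 stood apart in the summed share (1.788%, median 1.181%) and Rps3a1 (327.1 CPM, median 252.3), and Prkar1a KD + Gcgr mAb replicate 7 in the summed share (2.219%, median 1.506%) and Rpl12 (254.5 CPM, median 164.5).

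Prkar1a KD + Control mAb replicate 10 was the highest library of its group for Rps27a (167.4 CPM, median 133.9) and Rps27l (133.3 CPM, median 97.85). Rpl10 was low in Gnas KD replicate 1 (255.9 CPM, median 322) and high in Control AAV + Gcgr mAb replicate 3 (560.6 CPM, median 417.7). Rpl22l1 was high in Epac2 KD replicate 7 (4.214 CPM, median 1.922) and in Control AAV + Gcgr mAb replicate 2 (32.35 CPM, median 17.84). Rps27l was high in Epac2 KD replicate 5 (115.6 CPM, median 72.56) and in Gcgr KD replicate 4 (99.33 CPM, median 69.47).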

How the results depend on the processing

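With library totals 0 canonical genes fell in Gcgr KD, 1 in Gnas KD and 12 in PKA KD, where 3 rose; 2 rose in Epac2 KD; PKA KD against Gcgr KD had 8 lower, PKA KD against Gnas KD 8 higher, and 1 fell with Prkar1a KD under the control antibody. DESeq2 gave 6 falls in Gcgr KD. Without the filter 3 fell in Gnas KD, 2 rose in Epac2 KD and 2 were higher in PKA KD than in Gnas KD. With only the groups compared 15 fell in Gnas KD, 1 rose in Epac2 KD, and PKA KD had 1 higher and 3 lower against each of Gcgr KD and Gnas KD. Without PKA KD replicate 3 falls numbered 12 in Gnas KD and 36 in PKA KD, and PKA KD had 1 higher against each, with 21 and 14 lower. Without Control AAV + Control mAb replicate 10, or without the libraries low in long transcripts, 1 fell with Prkar1a KD. Per effective library size the ratio of summed shares was 0.8795 in Gcgr KD, 0.9079 in Gnas KD and 0.8744 in PKA KD. The cause of these shifts was not tested.

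The replicate block, a term for the replicate number, gave 26 falls in PKA KD and 51 rises with Prkar1a KD. It moved 1 count by over 1.5 times, the lower genes of PKA KD against Gcgr KD, to 8. The labels do not say whether replicate numbers pair libraries. Same-numbered libraries had a mean correlation of 0.025 over 100 pairs in experiment 1 (-0.39 to 0.57) and 0.021 over 60 pairs in experiment 2 (-0.32 to 0.40). For libraries of unlike number the means were -0.0022 and -0.0017.

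Of single genes past the threshold, Rpl37rt changed sign under DESeq2, to 0.35 for PKA KD against Gnas KD and -0.070 for Gnas KD against Gcgr KD; 60 called values lost their call under the alternatives listed at the outset and 15 under those added after values were seen. Of values not past the threshold, 29 changed sign by more than 1 SE. With library totals, these were in Gcgr KD Rpl13a (0.0092), Rpl27a (0.054), Rpl3 (0.0022), Rpl5 (0.010), Rps27a (0.034), Rps3a1 (0.0078) and Rps6 (0.063); in Gnas KD Rpl3 (0.023) and Rpl7l1 (0.00039); in PKA KD Rpl18 (0.021), Rpl27a (0.068), Rpl3 (0.053), Rplp0 (0.058), Rps3a1 (0.032) and Rpsa (0.016); in Epac2 KD Rpl7l1 (-0.042); and in Prkar1a KD + Gcgr mAb against Control AAV + Control mAb Rpl22 (0.027). Without PKA KD replicate 3 they were in PKA KD Rpl11 (-0.059), Rpl26 (-0.13), Rpl39 (-0.28) and Rps27l (-0.12), against Gcgr KD Rpl26 (-0.020), Rplp2 (-0.057) and Rps27l (-0.11), and against Gnas KD Rpl36al (-0.080), Rpl39 (-0.21) and Rplp2 (-0.059). Without the libraries low in long transcripts they were Rplp2 for the Gcgr mAb in Control AAV (0.0016) and Rpl22 in Prkar1a KD + Gcgr mAb against Control AAV + Control mAb (0.0046).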
